A study of Caenorhabditis elegans with 12 samples.

Results

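The galectins of Caenorhabditis elegans are the proteins of the lec genes, and 10 of these genes are described here in worms kept on 4 diets. The members were chosen by name from the gene identifiers of the deposited table: lec-1, lec-2, lec-3, lec-4, lec-5, lec-6, lec-8, lec-9, lec-10 and lec-11, which are 10 of its 46929 genes. All 10 had enough counts to be tested, together with 14610 genes in all. The family was taken up because lec-11, lec-10 and lec-6 had already been seen to be lower with the cytoplasmic extract than in the control in these data. The values of that comparison are therefore given as a description, with no test. P-values of other comparisons that use the control or the cytoplasmic extract libraries are given as part of the fit over all genes and are not independent of that choice. The comparison of the nuclear extract with desiccated thymus shares no library with it.

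Whole worms were raised from hatching to the L4 larval stage on live bacteria in a standard nematode medium, in all groups alike, and were given their diets from day 1 of adulthood. The groups were a control, a desiccated bovine thymus diet, a cytoplasmic extract of bovine thymus gland and a nuclear extract of bovine thymus gland, with 3 libraries each. The labels name no strain, dose or age at collection, and do not say whether replicates came from separate cultures. The protocol describes total RNA enriched for polyadenylated RNA, while the molecule field reads nuclear RNA, and the values are read here by the protocol. Raw read counts per gene were deposited.

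Galectins are small proteins that bind sugars containing beta-galactose, on glycoproteins and on glycolipids, through a conserved carbohydrate recognition domain. They are made without a signal peptide and are found both inside and outside cells. In C. elegans the sugar recognised by LEC-6 is a galactose on the core fucose of N-glycans, which the fucosyltransferase FUT-8 and the galactosyltransferase GALT-1 build. LEC-8 binds glycolipids, the kind of molecule that the bacterial pore-forming toxin Cry5B uses to attach to the gut. Worms without LEC-10 are more sensitive to oxidative stress. LEC-1 carries a pair of recognition domains in tandem, and LEC-6 carries a single one.

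Library totals ran from 23.1 to 33.4 in units of 1e6 counts. Desiccated thymus replicate 3 stood apart with 14.01% of its counts from ribosomal RNA, against 0.377% to 2.16% elsewhere. Without it, the number of galectin genes that passed was the same in each of the 3 tested comparisons of desiccated thymus, and values for the genes named are given beside those results. Marker genes of the intestine, hypodermis, body wall muscle, pharynx, neurons and oocytes were present in every library, as a whole animal should show, while 4 of 8 sperm markers had no count in at least 1 library. In RNA of whole worms, fewer cells of a type and less RNA per cell cannot be told apart.

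Per length, the galectins covered a wide range of levels. The unit used here is CPM per kilobase, that is, counts scaled to a library total of 1e6 and divided by exon length. Averaged over the 12 libraries, lec-8 and lec-6 stood highest, at 333 and 332 CPM per kilobase, and each lay above 98.2% and 98.1% of all tested genes. They were followed by lec-1 (196), lec-5 (153), lec-10 (140.1), lec-9 (70.5), lec-2 (57.3) and lec-4 (33.7). The lowest were lec-11 (9.38) and lec-3 (6.21), which lay above 52.2% and 47.1% of tested genes. Of the summed level of the 10 genes, lec-8 made up 25.0% ± 2.08 and lec-6 24.9% ± 2.13 (SD, n = 12 libraries). The order of these 2 genes depended on the diet. In the control lec-6 averaged 391 ± 14.4 CPM per kilobase and lec-8 321 ± 17.6, and with the nuclear extract lec-6 averaged 315 ± 26.1 and lec-8 367 ± 23.0 (SD, n = 3).

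**Figure D1:**
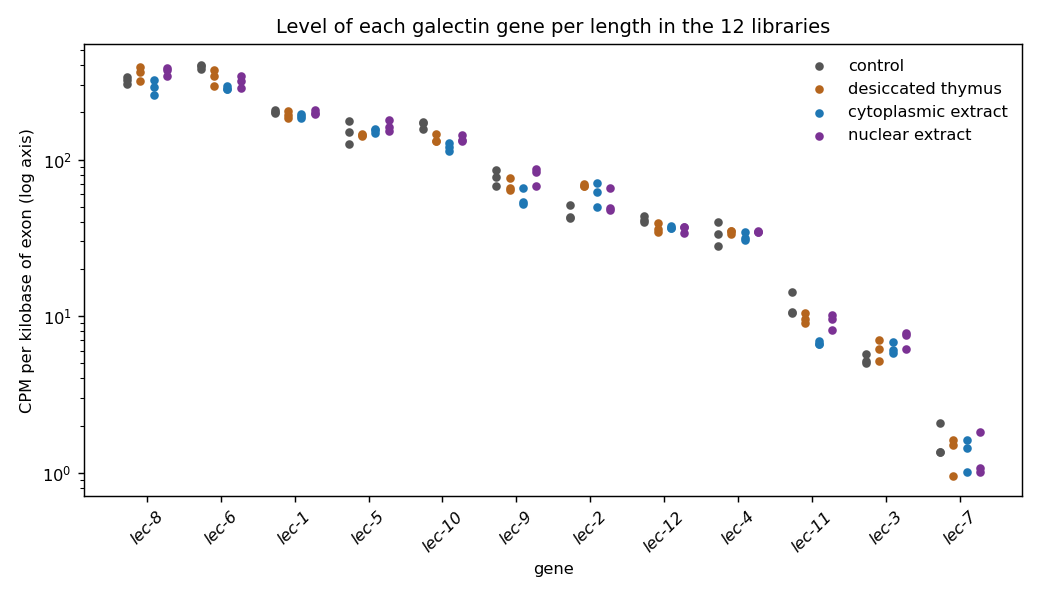
Level of each galectin gene in CPM per kilobase of exon, on a log axis, with 1 point per library and colours for the 4 diets. The genes lec-8 and lec-6 average 333 and 332 CPM per kilobase over the 12 libraries, and lec-3 averages 6.21. The named family genes lec-7 and lec-12, which are not among the 10 members, are drawn beside them.

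The genes lie on 5 chromosomes of the WBcel235 build. On chromosome II are lec-1 (CELE_W09H1.6, 13195549 to 13199713), lec-2 (CELE_F52H3.7, 10009608 to 10016183), lec-3 (CELE_ZK892.1, 9991160 to 10000350) and lec-5 (CELE_ZK1248.16, 5839639 to 5841103). On chromosome III are lec-4 (CELE_C44F1.3, 3771425 to 3773326) and lec-6 (CELE_Y55B1AR.1, 599510 to 600366), and on chromosome X are lec-8 (CELE_R07B1.10, 9850571 to 9851336) and lec-9 (CELE_C16H3.2, 17600487 to 17601503). The gene lec-10 (CELE_W01A11.4) lies on chromosome V (6488203 to 6489120) and lec-11 (CELE_F38A5.3) on chromosome IV (6588184 to 6590154). The 3 genes that drew attention to the family are thus on 3 different chromosomes. Exons of lec-11 share 3 bases with dnj-11 and exons of lec-3 share 16 bases with nlt-1, each on the opposite strand. Reads over those bases cannot be told apart in libraries that do not mark strand, and no other member shares exon bases with another gene.

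Averaged by diet, the levels of lec-10, lec-6 and lec-11 were highest in the control and lowest with the cytoplasmic extract. In the control, lec-10 stood at 127, 140.4 and 137 CPM in replicates 1, 2 and 3. With desiccated thymus it stood at 106, 116 and 106 CPM, with the nuclear extract at 107, 105 and 116 CPM, and with the cytoplasmic extract at 96.3, 103 and 91.6 CPM. Every library of the 3 thymus diets lay below every control library. For lec-6 the control libraries held 218, 203 and 213 CPM. Those of desiccated thymus held 159, 202 and 184 CPM, those of the nuclear extract 155, 183 and 172 CPM, and those of the cytoplasmic extract 159, 152 and 152 CPM. No library of a thymus diet reached the lowest control, although desiccated thymus replicate 2 came within 1 CPM of it. For lec-11, a gene of low level, the control libraries held 14.4, 14.5 and 19.5 CPM. The values were 13.02, 12.3 and 14.4 CPM with desiccated thymus, 11.1, 13.1 and 13.9 CPM with the nuclear extract, and 9.15, 9.48 and 9.12 CPM with the cytoplasmic extract. Here too the thymus libraries lay below the controls, but desiccated thymus replicate 3 lay next to the lowest control, and control replicate 3 stood apart above the other controls.

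**Figure D2:**
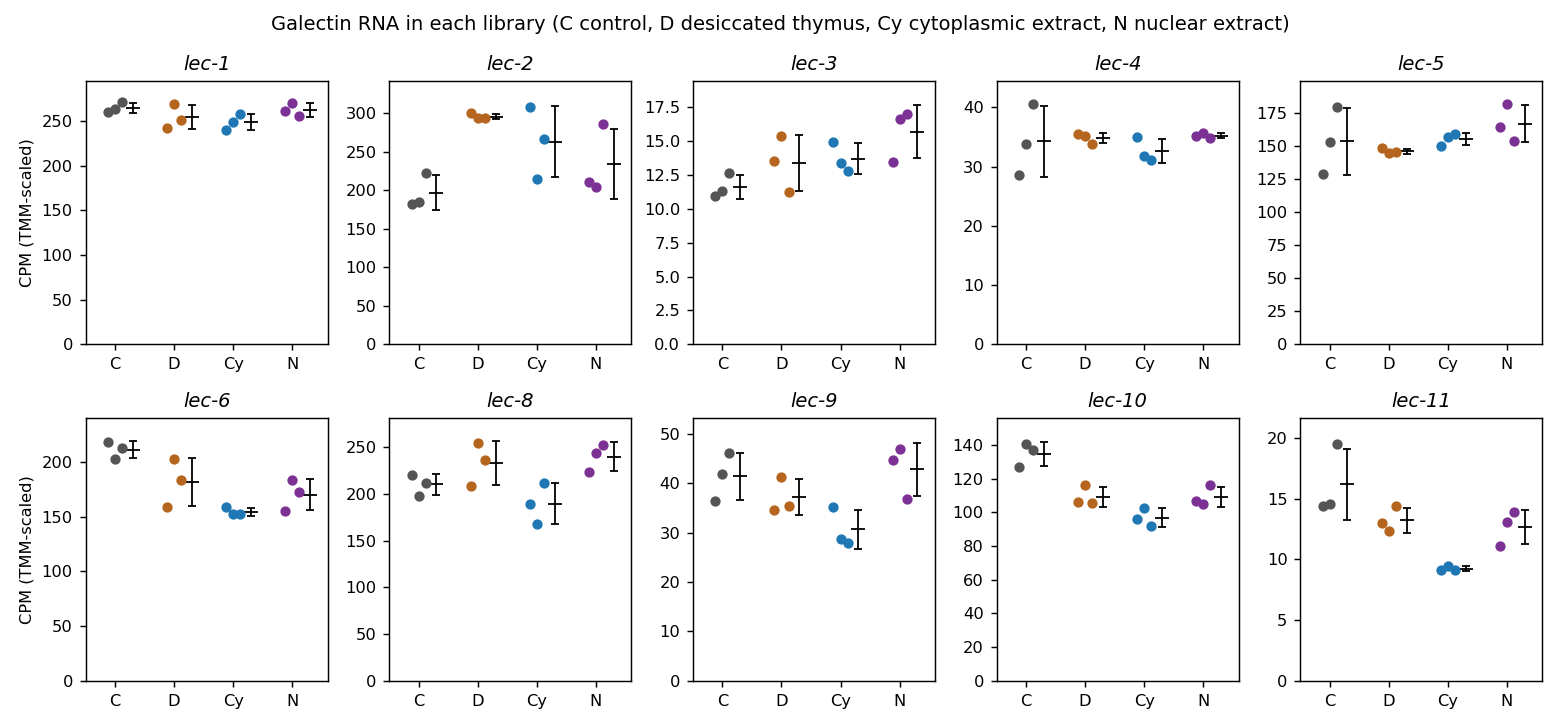
RNA of each of the 10 galectin genes in CPM, on linear axes that start at 0, with 1 point per library and the mean and SD of each diet beside the points (n = 3). For lec-10, all 3 libraries of each thymus diet lie below the control libraries, which sit between 127 and 140.4 CPM, and for lec-11 the cytoplasmic extract libraries sit between 9.12 and 9.48 CPM, below all other libraries.

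With desiccated thymus, lec-10 fell by 18.9% against the control, from 135 ± 7.24 to 109 ± 5.99 CPM (SD, n = 3), and it was the only galectin gene to pass. On the log2 scale this was -0.30, with a standard error (SE) of 0.0584. The adjusted p was 0.00821 in edgeR's quasi-likelihood test, with Benjamini-Hochberg adjustment over all tested genes. Without desiccated thymus replicate 3 it was -0.28 (adjusted p = 0.0441). So 1 of 10 galectins fell and none rose, where 0.897% of all tested genes fell and 2.97% rose. An unadjusted p under 0.05 was found for 4 of 10 galectins and for 16.5% of all tested genes. The median log2 fold change of the 10 was -0.07, and that of all tested genes -0.0027. The libraries did not overlap for 3 lower galectins and 1 higher one, where 7.97% and 12.3% of tested genes had this property. The 3 lower ones were lec-6, lec-10 and lec-11, which had been picked out in a comparison with the same control libraries. Nothing is read for the family from these counts of lower genes.

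The other lower genes did not pass with desiccated thymus. The log2 fold change of lec-6 was -0.22 (SE 0.0780, adjusted p = 0.173), and that of lec-11 was -0.29 (SE 0.124, adjusted p = 0.25). Without desiccated thymus replicate 3 they were -0.23 (adjusted p = 0.281) and -0.35 (adjusted p = 0.269). The value of lec-6 turned on single libraries: it was -0.30 without desiccated thymus replicate 2 (adjusted p = 0.0449) and -0.13 without replicate 1 of that diet (adjusted p = 0.356). With all libraries DESeq2 called lec-6 (adjusted p = 0.0461). The value of lec-11 was -0.13 without control replicate 3.

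The level of lec-2 averaged highest with desiccated thymus. The libraries of this diet held 300.1, 294 and 294 CPM, against 182, 185 and 223 CPM in the control. The groups did not overlap, and the 3 desiccated thymus libraries lay close together. The cytoplasmic extract libraries were spread from 215 to 308 CPM and those of the nuclear extract from 204 to 286 CPM, so 1 library of the cytoplasmic extract and 2 of the nuclear extract lay within the control range. The log2 fold change of lec-2 against the control was 0.59 with desiccated thymus (SE 0.162, adjusted p = 0.0988), so it did not pass when all 12 libraries shared 1 estimate of the spread. It passed when only these 2 groups were fitted (adjusted p = 0.00496) and with DESeq2 (adjusted p = 0.0128). Without desiccated thymus replicate 3 it was 0.59 (adjusted p = 0.217).

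Against the control, lec-10 and lec-6 fell with the nuclear extract and lec-3 rose. The level of lec-10 fell by 18.98%, to 109 ± 5.91 CPM (SD, n = 3), which is -0.30 in log2 (SE 0.0584, adjusted p = 0.00416, edgeR). The level of lec-6 fell by 19.4%, from 211 ± 7.79 to 170.3 ± 14.1 CPM, which is -0.31 in log2 (SE 0.0781, adjusted p = 0.0232). The call of lec-6 was lost without control replicate 1 (adjusted p = 0.096) or 3 (0.0519), without nuclear extract replicate 1 (0.0606) or 3 (0.0676), and with scaling by library totals only (0.054). The log2 fold change of lec-11 was -0.35 (SE 0.125, adjusted p = 0.0745), and it did not pass. It passed in a fit blocked by replicate number (adjusted p = 0.0495) and in DESeq2 (0.0457). The value was -0.19 without control replicate 3.

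The gene lec-3, which has several transcripts, held 13.4, 16.6 and 17.01 CPM with the nuclear extract and 10.96, 11.3 and 12.7 CPM in the control. The groups did not overlap, but nuclear extract replicate 1 lay close to the highest control. Its log2 fold change was 0.43 (SE 0.126, adjusted p = 0.0358). The call was lost without control replicate 1 (0.0992) or 2 (0.0916), without nuclear extract replicate 2 (0.121) or 3 (0.138), and when only these 2 groups were fitted (0.0613). The counts behind it ran from 275 to 441 in these 6 libraries.

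Under the nuclear extract 2 of 10 galectins fell and 1 rose, where 4.51% of all tested genes fell and 8.79% rose, so the share that rose lies near that of all genes. At an unadjusted p under 0.05 there were 4 of 10 galectins, where 30.3% of all tested genes had such a p. The median log2 fold change of the 10 was 0.04 and that of all tested genes 0.02. The libraries did not overlap for 3 lower and 2 higher galectins, where 15.4% and 17.8% of tested genes had this property. Here too the 3 lower ones were lec-6, lec-10 and lec-11, picked out against the same control libraries. The counts of lower genes are not read as a result about the family. Intestine markers, 10 in number, were higher beside these results. Their summed level ran from 1150 to 1230 CPM in the control, from 1346 to 1394 CPM with the nuclear extract and from 1267 to 1490 CPM with desiccated thymus. Of them 4 rose with the nuclear extract and 3 with desiccated thymus. Of 8 oocyte and germline markers, whose summed level was 10292 to 10621 CPM in the control and 9571 to 9829 CPM with the nuclear extract, 4 fell. Of 8 hypodermis markers 4 rose with the nuclear extract, and the median log2 fold change of the 8 was 1.78 (-0.09 to 3.14). Their summed levels overlapped, with 184 to 222 CPM in the control and 194 to 246 CPM with the nuclear extract. Of 8 neuron markers 3 rose and 1 fell. The part of these markers in the galectin values was not tested.

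**Figure D3:**
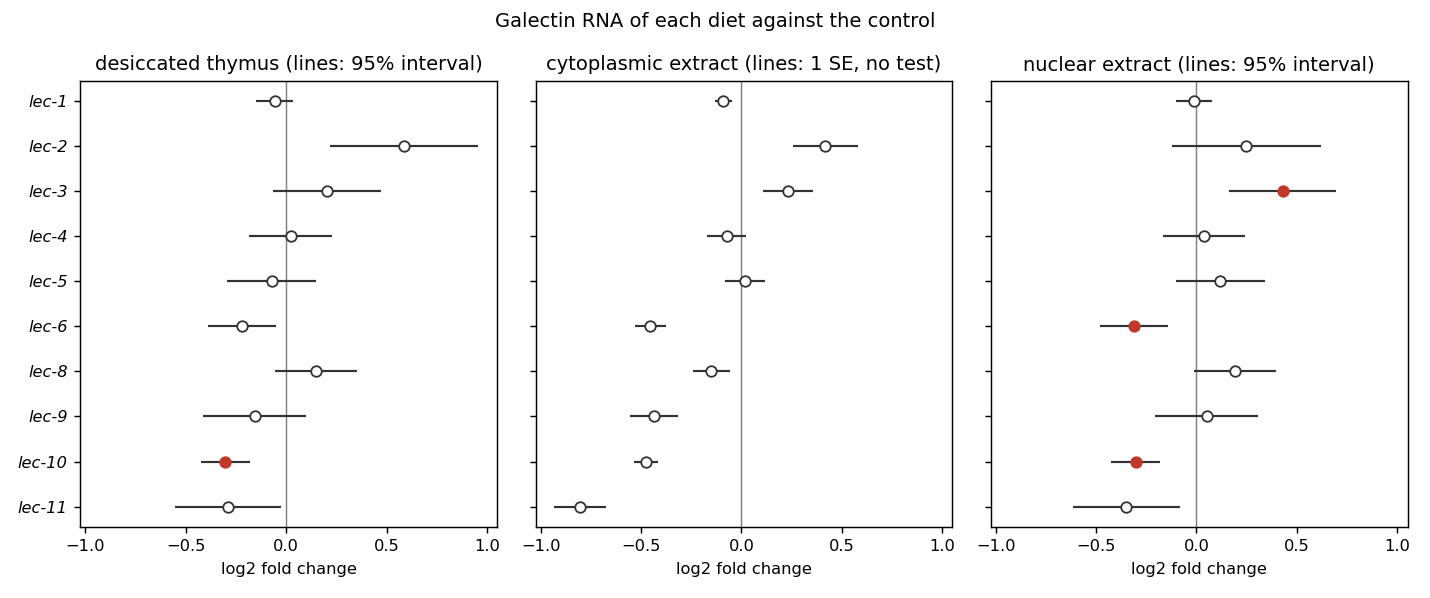
Log2 fold change of each galectin gene against the control for the 3 thymus diets. Filled points passed edgeR's test over all genes, and the lines are 95% intervals, except for the cytoplasmic extract, where the lines are 1 standard error and no test is read. The gene lec-10 lies at -0.30 with desiccated thymus, -0.48 with the cytoplasmic extract and -0.30 with the nuclear extract.

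The cytoplasmic extract against the control is the comparison that drew attention to the family, and its values are given without a test. The fitted difference of lec-11 was -0.80 on the log2 scale (SE 0.127), from 16.2 ± 2.92 to 9.25 ± 0.199 CPM (SD, n = 3). That of lec-10 was -0.48 (SE 0.0585), and that of lec-6 was -0.45 (SE 0.0782). Over all tested genes 0.212% were called lower and 0.5% higher, and nothing is read from these shares for the 3 genes on which the choice rested. The fitted difference of lec-9 was -0.43 (SE 0.119). The libraries of lec-9 held 35.2, 28.8 and 27.9 CPM with the cytoplasmic extract against 36.4, 41.7 and 46.0 CPM in the control, and the highest of the first group lay just under the lowest of the second. The gene lec-1 stood at -0.09, and lec-2 and lec-3 were on the other side, at 0.42 and 0.23. Over the 10 genes 7 were lower and 3 higher, with a median of -0.12 against 0.00076 for all tested genes. The libraries did not overlap for 5 lower and 1 higher of them, and for 7.78% and 9.95% of all tested genes. The 5 lower ones were lec-6, lec-10, lec-11, lec-1 and lec-9. These counts and the median include the 3 genes on which the choice rested, so nothing is read from them for the family. The intestine markers ran from 1171 to 1375 CPM with the cytoplasmic extract, which overlaps the control, and none of the 10 markers passed in either direction (edgeR).

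The summed level of the family, in CPM per kilobase, was 1377, 1373 and 1469 in the control and 1218, 1158 and 1228 with the cytoplasmic extract. It was 1259, 1451 and 1350 with desiccated thymus and 1303, 1414 and 1383 with the nuclear extract. The cytoplasmic extract libraries were the lowest of the 12, and the other 3 groups overlapped. The sum includes lec-6, lec-10 and lec-11, on which the choice rested. Its low level with the cytoplasmic extract is therefore not read as a result about the family. Most of this sum comes from lec-8, lec-6, lec-1, lec-5 and lec-10.

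Between the thymus diets, no galectin gene passed edgeR's test over all genes, but several were lowest with the cytoplasmic extract. Of all tested genes, 1.59% were higher and 0.192% lower under the nuclear extract than under the cytoplasmic extract. For desiccated thymus these shares were 0.794% and 0.418%. For the nuclear extract, 4 of 10 galectins had an unadjusted p under 0.05, and for desiccated thymus 5 of 10 did, all of them higher. Of all tested genes, 14.9% and 9.92% had such a p in either direction. DESeq2 called 3 of the first (lec-8, lec-9 and lec-11) and 2 of the second (lec-8 and lec-11). The share of all tested genes that DESeq2 called is not given here, so nothing is read from its counts for the family. These comparisons share the cytoplasmic extract libraries, in which lec-6, lec-10 and lec-11 had been seen to be low.

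The gene lec-9 held 44.8, 46.9 and 36.7 CPM with the nuclear extract, all above the cytoplasmic extract libraries. The log2 fold change was 0.48 (SE 0.119, adjusted p = 0.061). It had an adjusted p of 0.0412 without cytoplasmic extract replicate 1 and 0.0375 without nuclear extract replicate 3. The gene lec-8 of the glycolipid-binding galectin held 223, 244 and 253 CPM with the nuclear extract and 189, 168 and 211 CPM with the cytoplasmic extract. These groups did not overlap, and the log2 fold change was 0.34 (SE 0.0922, adjusted p = 0.105, and 0.0412 without cytoplasmic extract replicate 3). In the control lec-8 held 220.4, 198 and 212 CPM, between the other groups and overlapping the cytoplasmic extract.

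For lec-11 the log2 fold change was 0.45 (SE 0.130, adjusted p = 0.0987) for the nuclear extract against the cytoplasmic extract. For desiccated thymus against the cytoplasmic extract it was 0.51 (SE 0.130, adjusted p = 0.0743). For lec-10 the same differences were 0.17 (SE 0.0586, adjusted p = 0.168) and 0.17 (SE 0.0586, adjusted p = 0.239). In both genes the 3 libraries of each of these diets lay above the 3 of the cytoplasmic extract, which held for 11.9% of tested genes with the nuclear extract and 9.07% with desiccated thymus. The opposite held for 10.7% and 7.87%, and among the galectins for lec-5 with desiccated thymus. For lec-6 the difference was 0.14 for the nuclear extract (SE 0.0782, adjusted p = 0.442), with overlapping libraries, and 0.23 for desiccated thymus (SE 0.0782, adjusted p = 0.256), without overlap. The latter was 0.32 without desiccated thymus replicate 1 (adjusted p = 0.0446) and 0.15 without replicate 2 (adjusted p = 0.579). Without replicate 3 it was 0.22 for lec-6, 0.46 for lec-11 (adjusted p = 0.267) and 0.20 for lec-10 (adjusted p = 0.31).

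The nuclear extract and desiccated thymus, which share no library with the comparison behind the choice of the family, did not differ in any galectin by these tests. None of the 10 passed edgeR's test, which called 0.157% of all tested genes higher and 0.00684% lower. DESeq2 called none of the 10 either, and the share of all genes that it called is not given here. None had an unadjusted p under 0.05, which 13.1% of all tested genes had. The 95% interval of the log2 fold change was -0.13 to 0.12 for lec-10, -0.26 to 0.08 for lec-6 and -0.33 to 0.21 for lec-11. Without desiccated thymus replicate 3 these differences were -0.028, -0.086 and -0.0093. The largest difference was in lec-2, at -0.34 (95% interval -0.71 to 0.03), with all nuclear extract libraries below those of desiccated thymus. Libraries did not overlap for this gene and, in the other direction, for lec-5, against 9.56% and 11.5% of all tested genes. After lec-2 came lec-3, at 0.22 (-0.04 to 0.49), and lec-9, at 0.21 (-0.05 to 0.46). Without desiccated thymus replicate 3 they were -0.35 for lec-2, 0.12 for lec-3 and 0.18 for lec-9.

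**Figure D4:**
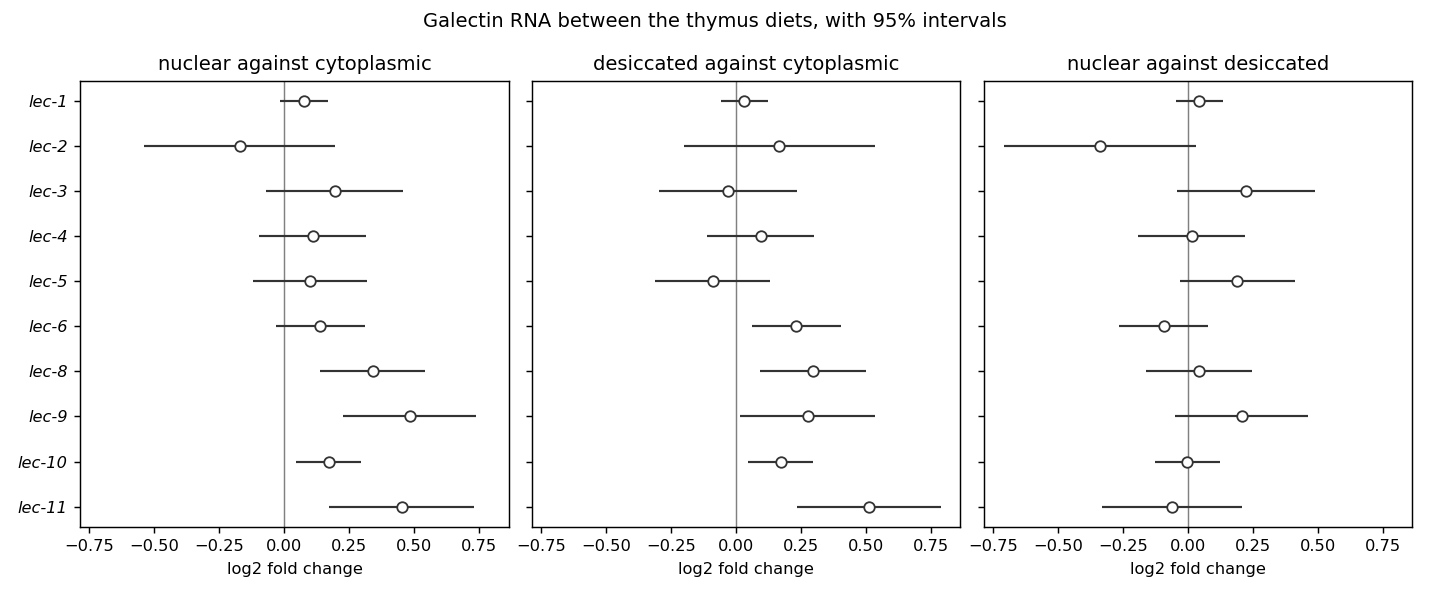
Log2 fold change of each galectin gene between the thymus diets, with 95% intervals from the fit over all genes. All points are open, since none passed. The nuclear extract lies above the cytoplasmic extract for 9 of the 10 genes, the exception being lec-2 at -0.17. The 9 include lec-6, lec-10 and lec-11, which had been picked out as low in these cytoplasmic extract libraries. Nothing is read from this count for the family.

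The order of the diets differed between genes. In lec-10, lec-6 and lec-11 the group means ran from the control, through desiccated thymus and the nuclear extract, down to the cytoplasmic extract. Desiccated thymus and the nuclear extract did not differ beyond their spread. No step between the thymus diets passed edgeR's test over all genes, and for lec-6 the nuclear and cytoplasmic extract libraries overlapped. In lec-8 and lec-9 the nuclear extract averaged highest and the cytoplasmic extract lowest. The nuclear extract overlapped desiccated thymus in lec-8, with a difference of 0.04 in log2 (adjusted p = 0.885). In lec-9 it overlapped the control, with a difference of 0.05 (adjusted p = 0.814). In lec-2 the order of the means was desiccated thymus, the cytoplasmic extract, the nuclear extract and the control, and the libraries of the last 3 overlapped. Those of desiccated thymus lay within the range of the cytoplasmic extract, with a difference of 0.17 (adjusted p = 0.881). The genes lec-1, lec-4 and lec-5 passed edgeR's test in none of the 5 comparisons tested; lec-5 passed with the nuclear extract against the control without control replicate 3 (0.24 in log2, adjusted p = 0.0456). The level of lec-1 was the steadiest, with 1.13-fold between the highest and the lowest of the 12 libraries, and that of lec-11 varied most, with 2.14-fold.

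Of the RefSeq genes named lec, lec-7 and lec-12 are not among the 10. The gene lec-7 begins 704 bases after the end of lec-8 on chromosome X (9852041 to 9853002) and is of low level, with 19 to 45 counts per library. Its mean of 1.40 CPM per kilobase compares with 333 for lec-8. The gene lec-12 held 58.8, 55.3 and 53.3 CPM in the control and 49.8, 49.7 and 45.6 CPM with the nuclear extract. It fell by 0.21 on the log2 scale (SE 0.0630, adjusted p = 0.0432, edgeR). That call was lost in the fit blocked by replicate number (0.0528), with library totals only (0.198), with no filter on low counts (0.061) and when only the 2 groups were fitted (0.0809). It was also lost without control replicate 1 (0.131) or 2 (0.0826) or any nuclear extract library (0.0595 to 0.175).

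Genes whose level followed that of lec-10, lec-6 and lec-11 were looked up among 8615 genes of at least 5 CPM by Pearson's r of log2 CPM over the 12 libraries. All 3 had cpr-6, a gene of a cathepsin B-like cysteine protease, among their 3 nearest, with r of 0.88 for lec-10, 0.84 for lec-6 and 0.89 for lec-11. The gene C16D9.4 was near lec-11 (0.93) and lec-10 (0.86). The other nearest genes were Y6D1A.1 (0.87) and F08G2.5 (0.84) for lec-6, ZK1055.7 for lec-11 (0.85) and the yolk protein gene vit-4 for lec-10 (0.87), whose reads may be shared with near-identical vitellogenin genes. Among the members themselves, r was 0.84 between lec-6 and lec-10, 0.82 between lec-10 and lec-11 and 0.79 between lec-6 and lec-11. Other pairs of members ran from -0.52 (lec-2 and lec-10) to 0.67 (lec-4 and lec-5). These values describe 12 libraries that share their diets and their scaling, and no test is attached to them. The 3 genes had been picked out as lower with the cytoplasmic extract than in the control. Libraries of both groups enter r, so high r between these genes and shared neighbours follow in part from that choice.

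Among genes that build the sugars which galectins bind, fut-8 and hex-2 rose with desiccated thymus and with the nuclear extract. Of 25 listed genes for N-glycans with galactosyl-fucose, for GDP-fucose and for glycolipids, 24 were tested, all but gmd-2. The gene fut-8, whose enzyme adds the core fucose of N-glycans, held 3.55, 4.62 and 2.94 CPM in the control. It held 8.60, 8.20 and 7.89 CPM with desiccated thymus, 8.96, 8.04 and 9.22 CPM with the nuclear extract, and 4.42, 4.42 and 5.49 CPM with the cytoplasmic extract. The first pair of thymus diets lay well above the control without overlap, and the cytoplasmic extract overlapped it. Against the control fut-8 rose by 1.14 on the log2 scale with desiccated thymus (SE 0.156, adjusted p = 0.000826) and by 1.22 with the nuclear extract (SE 0.156, adjusted p = 0.000231). Without desiccated thymus replicate 3 the first value was 1.16 (adjusted p = 0.00439). With the cytoplasmic extract it was 0.35 and did not pass (adjusted p = 0.397). The difference itself passed for the nuclear extract against the cytoplasmic extract (0.87, SE 0.1499, adjusted p = 0.00791) and for desiccated thymus against it (0.79, SE 0.1504, adjusted p = 0.019). It was lost without cytoplasmic extract replicate 2 (0.0553 and 0.0973), and for desiccated thymus also without cytoplasmic extract replicate 1 (0.0775) or desiccated thymus replicate 1 (0.0942) or 2 (0.065).

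The gene hex-2, whose enzyme removes N-acetylglucosamine from N-glycans, held 10.6, 12.3 and 13.8 CPM in the control. It held 19.98, 18.1 and 17.8 CPM with desiccated thymus and 17.2, 20.8 and 20.1 CPM with the nuclear extract, all above the controls. It rose by 0.61 with desiccated thymus (SE 0.115, adjusted p = 0.00686, and 0.0211 without replicate 3) and by 0.66 with the nuclear extract (SE 0.115, adjusted p = 0.00215). Against the cytoplasmic extract it rose by 0.51 with the nuclear extract (adjusted p = 0.0321), a call lost without cytoplasmic extract replicate 1 (0.103) or 2 (0.186) or nuclear extract replicate 2 (0.134) or 3 (0.119).

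In the nuclear extract bre-1, a gene of the enzyme that starts GDP-fucose synthesis, rose by 0.46 (SE 0.0971, adjusted p = 0.00709). The ceramide glucosyltransferase gene cgt-1 fell by 0.98 (SE 0.283, adjusted p = 0.0345), with overlapping libraries and a call lost without control replicate 2 (0.0922) or 3 (0.0853), without nuclear extract replicate 1 (0.112) or 3 (0.1) and when only the 2 groups were fitted (0.0854). Of the 24 tested, 2 rose with desiccated thymus and none fell, where 2.97% of all tested genes rose and 0.897% fell. Under the nuclear extract 3 genes passed upward and cgt-1 alone downward, which is near the 8.79% and 4.51% of all tested genes. At an unadjusted p under 0.05 there were 7 and 9 of the 24, against 16.5% and 30.3% of all tested genes. From the list none passed with the cytoplasmic extract in edgeR, where 0.5% of all tested genes rose and 0.212% fell. DESeq2 called none, and the share of all genes that it called is not given here. None had an unadjusted p under 0.05, which 12.6% of all tested genes had. In edgeR the unadjusted p was 0.0507 for fut-8 and 0.0518 for cgt-2, just above that line. The median difference over the list was 0.06, 0.11 and -0.02 in log2 for these 3 diets. The galactosyltransferase gene galt-1 had 4 to 15 counts per library, and its 95% interval against the control was wide, from -0.74 to 1.41 in log2 with desiccated thymus and from -0.73 to 1.44 with the nuclear extract. The rise of fut-8, hex-2 and bre-1 stands beside changes in markers of several tissues, given above. Intestine markers were higher with desiccated thymus and with the nuclear extract. With the nuclear extract 4 of 8 hypodermis and 3 of 8 neuron markers also rose, while 1 neuron marker and 4 of 8 oocyte and germline markers fell. The part of these markers in the rise was not tested.

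**Figure D5:**
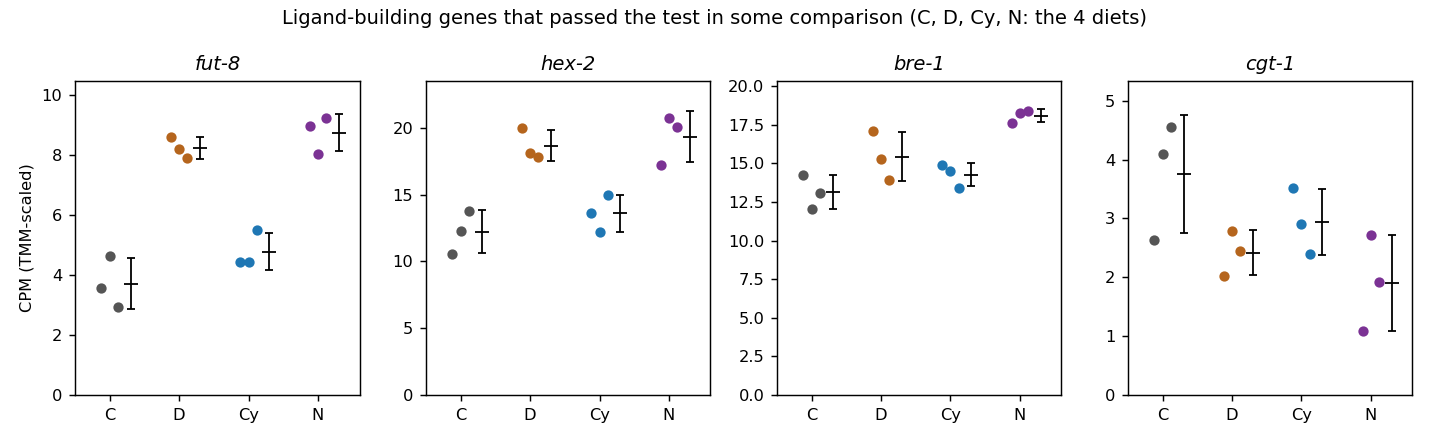
RNA of fut-8, hex-2, bre-1 and cgt-1 in CPM, on linear axes that start at 0, with 1 point per library and the mean and SD of each diet (n = 3), where C is the control, D desiccated thymus, Cy the cytoplasmic and N the nuclear extract. For fut-8 the libraries of desiccated thymus and the nuclear extract sit between 7.89 and 9.22 CPM, and those of the control and the cytoplasmic extract between 2.94 and 5.49 CPM.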

How the data were processed

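The deposited table gives raw read counts for each gene. The authors made it with Trimmomatic, STAR, featureCounts and DESeq2, per the submitters' processing notes, which give no versions. The build, WBcel235, was read from chromosome accessions in the table. The strand setting, and what was done with multiply mapped reads, is not given in the sources used here. Exon lengths in bases, another value of the table, come from the same deposited file.

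Groups came from the sample titles, and count columns were matched to them by the initials of the diet and the replicate number. The filter was filterByExpr of edgeR (minimum count 10), totals were taken over the genes kept and scaled by TMM, and 1 model with a mean per diet was fitted to all 12 libraries (edgeR 4.0.16, R 4.3.3, bias-adjusted quasi-likelihood, robust, two-sided, Benjamini-Hochberg threshold 0.05). The biological coefficient of variation was 12.7%. CPM values use the same scaled totals. Every adjusted p comes from this fit unless another setting is named. With no word on separate cultures, p-values reflect only how these libraries vary, which may be technical variation. With 3 libraries a group, the smallest two-sided p of an exact permutation test is 0.1.

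Alternatives were RLE factors, library totals only, no filter, 1 CPM in 3 libraries, DESeq2 1.42.0, only the 2 groups compared, the replicate number as a block and leaving out each library. Same-numbered libraries deviated from their group means together for the control and the nuclear extract (r across genes of 0.383, 0.669 and 0.330), the control and desiccated thymus (0.149, 0.471 and 0.199) and desiccated thymus and the nuclear extract (0.254, 0.473 and 0.197). This pairing comes from the data only. With the cytoplasmic extract, r was negative for replicate 1 and positive for replicates 2 and 3. It was -0.358, 0.458 and 0.349 with the control and -0.353, 0.430 and 0.337 with the nuclear extract. With desiccated thymus it was -0.242, 0.249 and 0.321. The scripts were tested on simulated counts. Members, lists and naming rules were chosen with earlier results of these data known. All 10 members are named, from the sugar-building genes at most 4 that passed per comparison, and the 3 genes nearest to lec-6, lec-10 and lec-11. No sequences were used here, and the planned search of promoters was not run.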

Additional observations from a re-analysis of the deposited data

How the results depend on the processing

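The fall of lec-10 with desiccated thymus and with the nuclear extract passed under every alternative run, with adjusted p from 6.00e-05 to 0.0450 and from 2.36e-05 to 0.0497. All these runs use the control libraries against which lec-10 had been picked out as low. They are not independent of that choice and show only that the call does not depend on the processing. The other counts of galectins that passed moved. With DESeq2, 1 gene was higher and 2 were lower with desiccated thymus against the control (0 and 1 in the reported fit). Against the cytoplasmic extract 2 were higher with desiccated thymus and 3 with the nuclear extract (0 in each). DESeq2 also called lec-11 lower with the nuclear extract against the control (adjusted p = 0.0457), which the reported fit did not. With only the 2 groups compared, 1 was higher with desiccated thymus against the control, 1 against the cytoplasmic extract, and 0 with the nuclear extract against the control (1 reported). With no filter on low counts, 1 was higher with desiccated thymus against the cytoplasmic extract, and scaling by library totals only left 1 lower with the nuclear extract against the control (2 reported). The replicate block gave 1 higher gene, lec-11 (adjusted p = 0.0450), for desiccated thymus against the cytoplasmic extract. There same-numbered libraries did not all deviate together (r of -0.242, 0.249 and 0.321 for replicates 1, 2 and 3). Apart from lec-11 and lec-12 with the nuclear extract against the control, the replicate block changed no other call of a galectin gene. Leaving out 1 library at a time gave 0 to 1 higher for desiccated thymus and 0 to 1 for the nuclear extract against the cytoplasmic extract. Against the control it gave 1 to 2 lower with desiccated thymus, and 0 to 2 higher and 1 to 2 lower with the nuclear extract. The share of all tested genes that passed under each of these settings is not given here. These shifts are therefore not read as a result about the galectins, and their cause was not tested.

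Directions changed only in log2 fold changes near 0 that passed no test. With library totals only, the value was -0.038 for lec-1 with desiccated thymus against the cytoplasmic extract, 0.030 for lec-1 with the nuclear extract against the control and -0.016 for lec-4 with desiccated thymus against the control. For the nuclear extract against desiccated thymus it was 0.081 for lec-10 and 0.026 for lec-11. Leaving out 1 library at a time gave, for desiccated thymus against the cytoplasmic extract, -0.0093 to 0.067 for lec-1 and -0.13 to 0.069 for lec-3. For the nuclear extract against the control it gave -0.036 to 0.0046 for lec-1, -0.077 to 0.17 for lec-4 and -0.034 to 0.15 for lec-9. For desiccated thymus against the control it gave -0.092 to 0.16 for lec-4 and -0.19 to 0.054 for lec-5. For the nuclear extract against desiccated thymus it gave -0.047 to 0.044 for lec-10, -0.13 to 0.025 for lec-11, -0.0084 to 0.028 for lec-4 and -0.032 to 0.11 for lec-8.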

Other observations

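The spread between replicates differed between diets for some members. For lec-4 the control libraries ran from 28.6 to 40.6 CPM, with a coefficient of variation of 17.5%, against 2.51% with desiccated thymus, 6.32% with the cytoplasmic extract and 1.13% with the nuclear extract. For lec-5 it was 16.5% in the control and 1.301%, 3.03% and 8.39% in the same diets. For lec-11 it was 18.03% in the control and 2.15% with the cytoplasmic extract. For lec-2 the order was another one, with 11.5% in the control, 1.24% with desiccated thymus, 17.7% with the cytoplasmic extract and 19.4% with the nuclear extract. These are values of 3 libraries each, and their difference was not tested.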
